A study of Homo sapiens with 6 samples.

Results

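The genes described here are 10 tubulin isotypes, 4 that encode alpha-tubulin (TUBA1A, TUBA1B, TUBA1C and TUBA4A) and 6 that encode beta-tubulin (TUBB, TUBB2A, TUBB2B, TUBB3, TUBB4B and TUBB6). They are 10 of the 34036 genes in the count table, and all 10 were found there by symbol and passed the filter on low counts. The members were chosen by name with earlier results of the same comparison in view, so their calls are given as a description and support nothing on their own. HepG2 is a human line derived from a hepatocellular carcinoma. Cells were transfected with a control siRNA (siControl) or an siRNA against DGUOK, the mitochondrial deoxyguanosine kinase (siDGUOK), and RNA was sequenced in bulk 48 h later from 3 libraries per group, which the series text calls independent biological replicates. The groups come from the sample titles, because the treatment field names the control siRNA for all 6 samples. The comparison asks how transcript levels differ in cells depleted of DGUOK.

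Alpha- and beta-tubulin form the heterodimer that polymerizes into microtubules, the tracks for vesicle transport and the spindle of dividing cells. Each is encoded by several genes, called isotypes, whose products are alike in the body of the protein and differ mainly in the acidic tail at the carboxyl end, where glutamate residues receive chains of further amino acids. Cells also regulate the stability of tubulin mRNA by the amount of free tubulin, through a ribosome-bound factor encoded by TTC5 with SCAPER as its adaptor.

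The coding ends of 5 beta isotypes show how near some of them are to each other, which bears on how their reads could be counted. Each line gives the last 60 bases of the coding sequence before the stop codon, from the canonical transcript of Gencode 44 on GRCh38, read 5′ to 3′ on the coding strand. The capitals mark in-frame GAA and GAG codons, which encode glutamate. TUBB lies at chr6:30724335-30724394 on the plus strand, TUBB2A at chr6:3153866-3153925 and TUBB2B at chr6:3224754-3224813 on the minus strand, TUBB3 at chr16:89935742-89935801 and TUBB6 at chr18:12326068-12326127 on the plus strand.
TUBB: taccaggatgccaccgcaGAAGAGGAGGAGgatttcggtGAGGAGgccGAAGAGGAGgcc
TUBB2A: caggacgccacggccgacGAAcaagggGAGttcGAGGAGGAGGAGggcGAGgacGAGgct
TUBB2B: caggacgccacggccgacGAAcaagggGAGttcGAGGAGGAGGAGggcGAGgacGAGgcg
TUBB3: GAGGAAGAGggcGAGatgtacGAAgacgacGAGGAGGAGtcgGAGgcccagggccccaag
TUBB6: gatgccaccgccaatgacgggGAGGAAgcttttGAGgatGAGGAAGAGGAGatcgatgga

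TUBB2A and TUBB2B differed at 1 of these 60 bases. Of the 20 codons shown, 9 were glutamate codons in TUBB and TUBB3, 8 in TUBB2A and TUBB2B, and 7 in TUBB6; TUBB4B, whose end is not printed, had 10. Over the whole coding sequence, aligned globally, TUBB2A and TUBB2B were 98.2% identical and TUBA1A and TUBA1B 97.2%. TUBB and TUBB3, by contrast, were 81.8% identical. Of the 75-base windows of the canonical transcript, 58.6% of those of TUBB2A, 52.1% of those of TUBB2B, 48.4% of those of TUBA1B and 31.7% of those of TUBA1A also occur elsewhere in the genome or in another listed isotype. For TUBA1C the share was 18.1%, for TUBB 10.49%, for TUBB3 6.80% and for TUBB4B 5.64%, and no window of TUBA4A or TUBB6 occurred elsewhere. With 100-base windows the share of TUBB2A was 54.6%, that of TUBA1A 21.2% and that of TUBB 5.42%. The read length is not given in the sources used here. The authors' counting left out reads that align to several places, so levels and shares of TUBB2A, TUBB2B, TUBA1A, TUBA1B, TUBA1C and, to a lesser extent of shared windows, TUBB, TUBB3 and TUBB4B are uncertain, by an amount that was not measured here.

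Library totals on genes were 19065684, 18915508 and 10527216 counts in siControl replicates 1, 2 and 3, and 18613138, 15978314 and 21334876 counts in siDGUOK replicates 1, 2 and 3. Levels are given in CPM, that is counts over the TMM-scaled library size. DGUOK, the targeted gene, was at 54.7, 53.5 and 48.5 CPM in siControl replicates 1, 2 and 3, and at 9.12, 10.48 and 6.69 CPM in siDGUOK replicates 1, 2 and 3. All 3 siDGUOK libraries lay below the siControl libraries, the direction implied by the siRNA in their titles. The log2 fold change was −2.58 (SE 0.19, adjusted p = 1.40e-08 from edgeR's quasi-likelihood test).

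Calls needed an adjusted p below 0.05 (edgeR, Benjamini-Hochberg over all genes tested) and an absolute log2 fold change above 0.5. Of the 10 isotypes, 5 were called higher in siDGUOK cells and none lower; among all 14476 genes tested, 7.14% were called higher, 6.90% lower and 14.0% in either direction. All 3 siDGUOK libraries were above all siControl libraries for 7 isotypes and below them for 1, where 18.1% and 17.7% of all genes tested did so. At the adjusted p alone 8 isotypes passed, 7 of them upward and TUBB2A downward, where 19.6% of all genes tested passed, 9.93% upward and 9.66% downward. Of these 8, TUBA1B did not pass without siDGUOK replicate 2, nor TUBB2A without siControl replicate 3. The median log2 fold change was 0.43 over the isotypes and 0.01 over all genes tested. In bulk RNA a change in the make-up of the culture and a change in RNA per cell cannot be told apart.

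**Figure D1:**
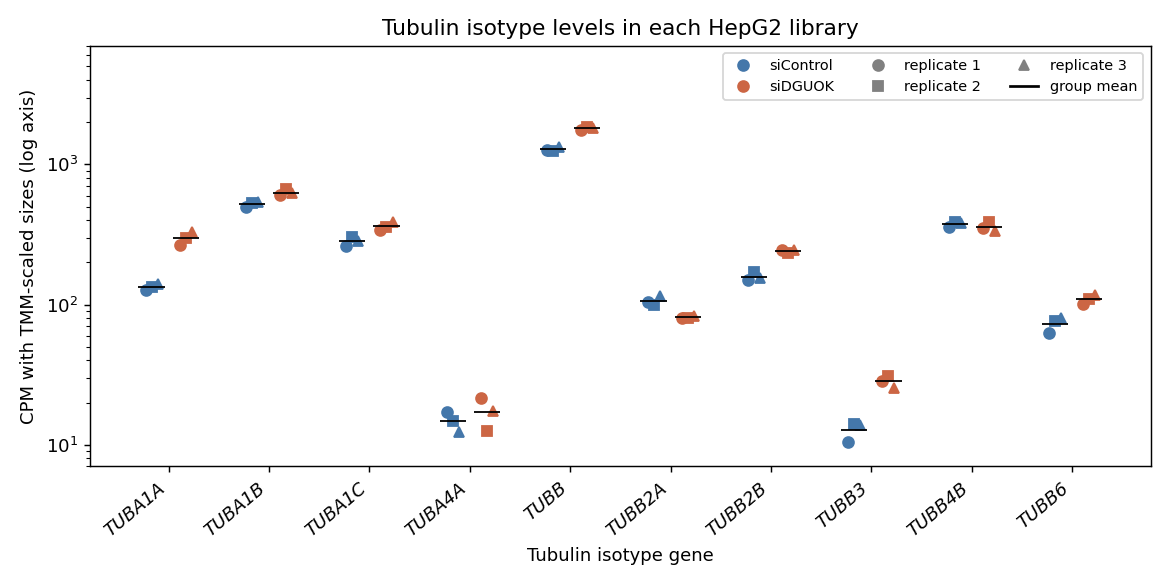
CPM of each tubulin isotype (log axis) in the 3 siControl and 3 siDGUOK libraries, with symbols for the replicates and lines for the group means. The siDGUOK libraries lie above the siControl libraries for 7 isotypes, below them for TUBB2A, and the groups overlap for TUBA4A and TUBB4B.

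Among the alpha-tubulin genes, TUBA1A, the isotype best known from developing neurons, had the largest change. It was at 128, 133 and 140 CPM in siControl replicates 1, 2 and 3, and at 268, 301 and 327 CPM in siDGUOK replicates 1, 2 and 3. The lowest siDGUOK library was well above the highest siControl library. The log2 fold change was 1.16 (SE 0.09, adjusted p = 2.87e-08 from edgeR's quasi-likelihood test), which is 2.24-fold. TUBA1A (ENSG00000167552.13) lies on chromosome 12 of GRCh38 from 49184686 to 49189080 on the minus strand. Its neighbours TUBA1B and TUBA1C are on the same chromosome. TUBA1B, the alpha isotype with the highest level, was at 498, 528 and 535 CPM in siControl replicates 1, 2 and 3, and at 601, 662 and 625 CPM in siDGUOK replicates 1, 2 and 3. TUBA1C was between 262 and 302 CPM in siControl and between 342 and 386 CPM in siDGUOK libraries. For both genes the groups did not overlap and the adjusted p passed, but the log2 fold changes of 0.27 (SE 0.07) and 0.35 (SE 0.08) did not reach the fold threshold. Without siDGUOK replicate 2 the adjusted p of TUBA1B was 0.0654 (edgeR). TUBA4A, the least abundant of the alpha isotypes, was between 12.4 and 17.2 CPM in siControl and between 12.6 and 21.6 CPM in siDGUOK libraries. These groups overlapped, and its log2 fold change of 0.21 (SE 0.24) moved between 0.02 and 0.39 when any 1 library was left out.

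Among the beta-tubulin genes, TUBB3, a marker of neurons that is also made by many tumour cells, was at 10.46, 14.1 and 13.8 CPM in siControl replicates 1, 2 and 3. It was at 28.7, 31.1 and 25.5 CPM in siDGUOK replicates 1, 2 and 3. Every siDGUOK library was above every siControl library, at counts of 508 to 557 against 144 to 262. The log2 fold change was 1.16 (SE 0.20, adjusted p = 3.51e-04 from edgeR's quasi-likelihood test). TUBB, the most abundant isotype, was at 1275.0, 1245 and 1321 CPM in siControl replicates 1, 2 and 3, and at 1774, 1849.9 and 1826 CPM in siDGUOK replicates 1, 2 and 3. The groups were far apart relative to their spread, at means of 1280.3 ± 37.9 and 1817 ± 38.8 CPM (SD, n = 3). The log2 fold change of TUBB, 0.505 (SE 0.07, adjusted p = 1.63e-05 from edgeR's quasi-likelihood test), lay just inside the fold threshold, and it fell just outside, at 0.494 and 0.492, without siControl replicate 2 or siDGUOK replicate 2.

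TUBB6, a broadly expressed beta isotype, was at 62.3, 76.8 and 80.4 CPM in siControl replicates 1, 2 and 3, and at 101, 109 and 118 CPM in siDGUOK replicates 1, 2 and 3. The groups did not overlap, and siControl replicate 1 was the lowest library. The log2 fold change was 0.58 (SE 0.12, adjusted p = 0.00121 from edgeR's quasi-likelihood test), and without siControl replicate 1 it was 0.49, which is not called. TUBB4B, which encodes a widely expressed beta isotype, was between 356 and 387 CPM in siControl and between 334 and 389 CPM in siDGUOK libraries. Its groups overlapped, at a log2 fold change of −0.07 (SE 0.08).

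TUBB2A and TUBB2B are neighbouring genes on the minus strand of chromosome 6, from 3153497 to 3157544 and from 3223324 to 3231730. TUBB2B was at 150, 170 and 156 CPM in siControl replicates 1, 2 and 3, and at 246, 235 and 245 CPM in siDGUOK replicates 1, 2 and 3. TUBB2A was at 105, 100.1 and 116 CPM in siControl replicates 1, 2 and 3, and at 80.5, 79.6 and 83.5 CPM in siDGUOK replicates 1, 2 and 3. The groups of both genes did not overlap, and they were apart in opposite directions. The log2 fold change of TUBB2B was 0.61 (SE 0.08, adjusted p = 2.95e-05 from edgeR's quasi-likelihood test), and that of TUBB2A was −0.40 (SE 0.10, adjusted p = 0.00934 from the same test), short of the fold threshold. Without siControl replicate 3 the adjusted p of TUBB2A was 0.0713 (edgeR). Per base of exon, the counts of TUBB2B over those of TUBB2A in the same library had a ratio of 0.998, 1.19 and 0.94 in siControl replicates 1, 2 and 3, and of 2.14, 2.06 and 2.05 in siDGUOK replicates 1, 2 and 3. The ratio is that of the counted reads, which leave out any that align to several places.

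**Figure D2:**
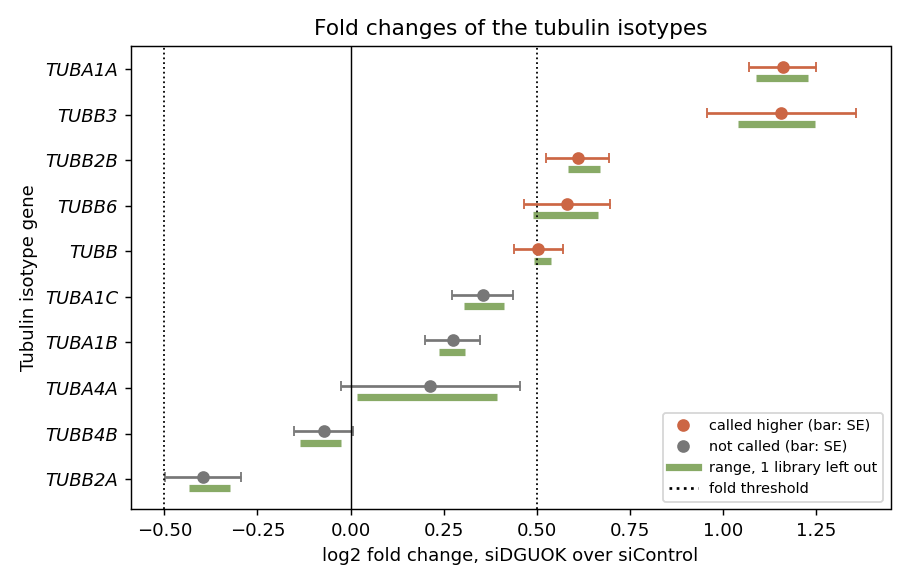
Log2 fold change of each tubulin isotype, siDGUOK over siControl, with bars for the SE, green lines for the range when each library in turn is left out, and dotted lines at the fold threshold of 0.5 either way. TUBA1A and TUBB3 stand apart at 1.16, and the ranges of TUBB and TUBB6 cross the threshold.

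The promoters of the neighbouring pair and of TUBA1A are printed because TUBB2A and TUBB2B lay apart in opposite directions, and TUBA1A changed most among the alpha isotypes. Each line holds the 300 bases around the gene's start from RefSeq (GRCh38.p14), in which all 10 isotypes had an entry, on the coding strand. TUBB2A is at chr6:3157495-3157794, TUBB2B at chr6:3227604-3227903 and TUBA1A at chr12:49189031-49189330, all on the minus strand. Capitals mark matches on either strand to CCAAT, to the Sp1-type motif GGGCGG, to the core promoter motif TATAAA or to the AP-1-type motif TGANTCA.
TUBB2A: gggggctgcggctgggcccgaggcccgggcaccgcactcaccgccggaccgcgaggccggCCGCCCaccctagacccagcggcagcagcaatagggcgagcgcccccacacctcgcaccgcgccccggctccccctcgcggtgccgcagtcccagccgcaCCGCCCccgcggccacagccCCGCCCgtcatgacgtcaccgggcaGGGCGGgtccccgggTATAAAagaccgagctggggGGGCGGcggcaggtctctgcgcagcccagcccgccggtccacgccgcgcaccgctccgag
TUBB2B: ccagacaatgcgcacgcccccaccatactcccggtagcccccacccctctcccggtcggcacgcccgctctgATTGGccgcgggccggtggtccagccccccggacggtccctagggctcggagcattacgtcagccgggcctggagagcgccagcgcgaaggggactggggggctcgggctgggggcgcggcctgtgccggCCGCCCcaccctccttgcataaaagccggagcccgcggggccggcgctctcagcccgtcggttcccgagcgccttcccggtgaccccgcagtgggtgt
TUBA1A: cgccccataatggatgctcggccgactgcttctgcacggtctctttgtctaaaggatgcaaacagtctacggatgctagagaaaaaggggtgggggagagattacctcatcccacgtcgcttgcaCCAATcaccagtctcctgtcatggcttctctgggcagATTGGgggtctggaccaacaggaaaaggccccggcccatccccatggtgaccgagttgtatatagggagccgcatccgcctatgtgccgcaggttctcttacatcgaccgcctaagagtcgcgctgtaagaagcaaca

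The TUBB2A window held 5 matches to GGGCGG, 1 to TATAAA and none to CCAAT, and the TUBB2B window 1 to GGGCGG, 1 to CCAAT and none to TATAAA. Aligned globally, the 300 bases of TUBB2A and TUBB2B were 52.2% identical, and those of TUBA1A and TUBA1B, aligned in the same way, 50%. The TUBA1A window held 2 matches to CCAAT and none to the other motifs. Of the 10 isotypes, 7 had CCAAT and 8 GGGCGG in at least 1 window, TUBB2A alone had TATAAA and TUBB3 alone TGANTCA. Some isotypes have several windows, 15 in all, of which 9 held CCAAT and 9 GGGCGG; some TUBA1C windows overlap and share a CCAAT match. Among 35116 promoters of the same length, 34.6% held CCAAT, 45.0% GGGCGG, 11.5% TATAAA and 7.71% TGANTCA. These are matches of letters and say nothing of which factors bind.

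Levels can be compared between genes only per length, here as CPM per kb of the union of annotated exons. On that scale the order in siControl cells was TUBB at 314, TUBB4B at 185, TUBA1B at 146, TUBA1C at 63.6, TUBB2B at 38.1, TUBB2A at 36.8, TUBA1A at 34.9, TUBB6 at 18.6, TUBA4A at 3.998 and TUBB3 at 1.72. The order depends on the length: per kb of canonical transcript, an alternative chosen after seeing the data, TUBA1B at 320 was above TUBB4B at 240, and TUBB3 at 7.49 above TUBA4A at 7.22. Per kb of the longest transcript, a length planned for the shares and applied to this order after seeing the data, TUBA1A at 50.8 was above TUBB2B at 42.9 and TUBB2A at 41.3. Over the siControl libraries TUBB2B spanned 36.0 to 40.8, TUBB2A 34.4 to 39.9 and TUBA1A 33.4 to 36.7, so these 3 neighbours in the order overlapped.

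The share of each isotype was its counts per kb over the sum of the alpha or of the beta isotypes in the same library, so the shares of a pool depend on each other. The share of TUBA1A in the alpha pool was 14.1%, 13.7% and 14.5% in siControl replicates 1, 2 and 3, and 21.8%, 22.6% and 24.3% in siDGUOK replicates 1, 2 and 3. The share of TUBA1B was 58.7 ± 0.53% in siControl and 51.8 ± 1.87% in siDGUOK libraries (SD, n = 3), although its own level was higher in siDGUOK cells. Both shares were without overlap between groups. TUBA1C held 25.6 ± 0.94% and 23.9 ± 0.77% (SD, n = 3), and TUBA4A overlapped between groups at 1.62 ± 0.33% and 1.38 ± 0.42% (SD, n = 3).

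In the beta pool TUBB had a share of 54.3%, 51.6% and 52.9% in siControl replicates 1, 2 and 3, and of 60.2%, 59.7% and 61.2% in siDGUOK replicates 1, 2 and 3. The share of TUBB4B was 30.3%, 32.1% and 30.8% in siControl replicates 1, 2 and 3, and 23.7%, 25.1% and 22.4% in siDGUOK replicates 1, 2 and 3. TUBB4B thus held a smaller share of the pool at a level that overlapped between groups. TUBB2A went from 6.19 ± 0.35% to 3.78 ± 0.16% and TUBB2B from 6.41 ± 0.41% to 7.87 ± 0.40% (SD, n = 3). TUBB6 was at 3.12 ± 0.33% and 3.75 ± 0.28%, and TUBB3 at 0.289 ± 0.04% and 0.518 ± 0.04% (SD, n = 3). The difference for TUBB3, 0.229 percentage points, depends on the length used, at 0.444 without length and 0.596 with canonical transcripts, the latter chosen after seeing the data. The counting error of a share of counts was at most 0.969 percentage points to either side (Wilson interval, 95%), which covers counting error only.

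**Figure D3:**
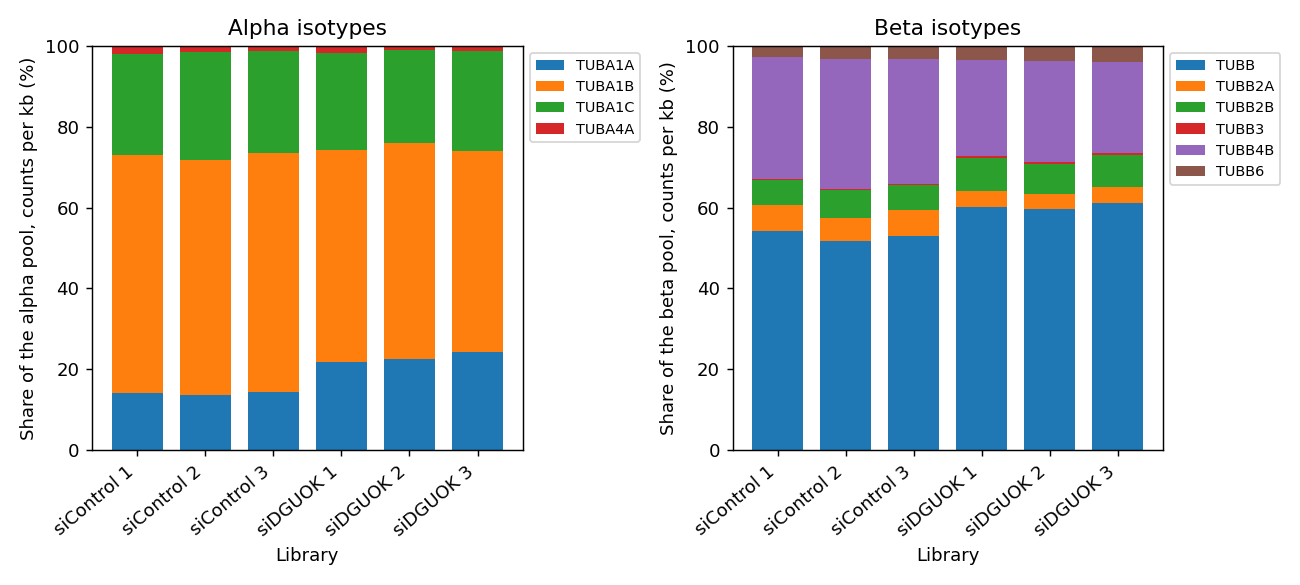
Share of each isotype in the alpha pool and in the beta pool (counts per kb of exon, in percent of the pool) in each library. TUBA1A takes 13.7% to 14.5% of the alpha pool in siControl and 21.8% to 24.3% in siDGUOK libraries. TUBB4B takes less of the beta pool in every siDGUOK library.

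Summed over the 4 alpha isotypes, the level was 905, 978 and 973 CPM in siControl replicates 1, 2 and 3, and 1233, 1334 and 1355 CPM in siDGUOK replicates 1, 2 and 3. Summed over the 6 beta isotypes, it was 1958, 1993 and 2072 CPM in siControl replicates 1, 2 and 3, and 2581, 2693 and 2631 CPM in siDGUOK replicates 1, 2 and 3. For each sum the groups did not overlap, and the ratio of the means was 1.37 for the alpha and 1.31 for the beta isotypes.

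Among the other 13 tubulin genes, 8 had a count, 7 were tested and none was called in edgeR's test. TUBB1, the platelet beta isotype, was at 67.6 ± 7.18 CPM in siControl and 79.1 ± 14.1 CPM in siDGUOK cells (SD, n = 3). TUBG1 and TUBG2, the gamma-tubulins that nucleate microtubules, had log2 fold changes of −0.05 (SE 0.11) and 0.04 (SE 0.32). TUBE1 and TUBD1, the epsilon- and delta-tubulins of centrioles, had 0.65 (SE 0.27, adjusted p = 0.109 from edgeR's quasi-likelihood test) and −0.36 (SE 0.25). For TUBE1 the siDGUOK libraries, at 12.2 to 17.9 CPM, were all above the siControl libraries. TUBA4B, TUBAL3 and TUBB4A had at most 37 counts in any library. TUBA3C, TUBA3D, TUBA3E, TUBA8 and TUBB8 had 0 counts in all 6 libraries. By library, 3 counts are 0.137 to 0.287 CPM, a floor that holds only for reads that could be placed uniquely, and how alike these 5 genes are was not analysed here.

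Of the 15 genes of the CCT chaperonin and of prefoldin, which hands nascent tubulin to it, 2 were called higher and none lower, with a median log2 fold change of 0.28. Over all genes tested, 14.0% were called in either direction, and the counts of this and the following lists are descriptions beside that share. VBP1, a prefoldin subunit, went from 38.8 ± 0.96 to 56.7 ± 6.39 CPM, and PFDN5, another, from 166 ± 21.1 to 241 ± 10.2 CPM (SD, n = 3). Each call was lost with 1 library left out, that of VBP1 without siDGUOK replicate 2 (0.47) and that of PFDN5 without siControl replicate 1 (0.47). None of the 8 tubulin cofactors and assembly factors was called. Their median log2 fold change was −0.18, and 3 of the 8 had a positive value. TBCB, which captures alpha-tubulin, had the most CPM of that list, without regard to length, at 111 ± 12.1 and 146 ± 4.56 CPM (SD, n = 3).

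Of the 3 genes of tubulin mRNA autoregulation, 1 was called. SCAPER was at 16.3, 15.9 and 13.8 CPM in siControl replicates 1, 2 and 3, and at 4.83, 5.70 and 4.58 CPM in siDGUOK replicates 1, 2 and 3. It fell without overlap, with a log2 fold change of −1.61 (SE 0.27, adjusted p = 2.73e-04 from edgeR's quasi-likelihood test). It stayed called with each library left out, between −1.70 and −1.54. TTC5, which recognizes the nascent tubulin chain, was at means of 22.6 and 24.3 CPM, and CNOT11, a subunit of the deadenylase complex that SCAPER recruits, at 95.9 and 80.4 CPM in siControl and siDGUOK cells, and neither was called. TTC5 and CNOT11 are named as the rest of that list.

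Of 19 tested genes of the gamma-tubulin ring complex and augmin, 1 was called higher and 1 lower, where 14.0% of all genes tested were called. HAUS2, an augmin subunit, went from 22.6 ± 2.44 to 38.9 ± 5.53 CPM (SD, n = 3) at 0.78 (SE 0.17) in log2 units. TUBGCP4, a ring complex subunit, had −0.69 (SE 0.22, adjusted p = 0.0305 from edgeR's quasi-likelihood test). Its call was lost without siControl replicate 1, siControl replicate 3, siDGUOK replicate 1 or siDGUOK replicate 2, at values between −0.90 and −0.50 over all 6 libraries left out.

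Of 19 tested microtubule stabilizers and plus-end proteins, 2 were called higher and 3 lower, with a median log2 fold change of −0.15. The calls in this list numbered 4 with the replicate block and 3 in DESeq2 with shrunken fold changes. With 1 library left out they numbered 3 to 5. MAP1B, a neuronal microtubule-associated protein, went from 48.4 ± 4.87 to 79.8 ± 17.5 CPM, and CAMSAP3, which binds minus ends in epithelial cells, from 77.2 ± 4.10 to 49.6 ± 5.79 CPM (SD, n = 3). MAP7, a cofactor of kinesin-1, had 63, 23 and 61 counts in siControl replicates 1, 2 and 3, and 0 counts in all 3 siDGUOK libraries. Against a floor of 3 counts over the siDGUOK group MAP7 was 58.1-fold lower, a value that leaves out variation between replicates. Its log2 fold change lay between −9.30 and −1.05 over the alternative fits, all of which kept the call. MAPRE2, a plus-end binding protein, had a log2 fold change of −0.52, and its call was lost without siControl replicate 1 (−0.41) or siControl replicate 3, with library totals alone, without a count filter and in DESeq2 with shrunken fold changes.

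Of 11 tested destabilizers and severing enzymes, 1 was called higher (STMN1) and 1 lower (STMN3), where 14.0% of all genes tested were called. STMN1, which sequesters tubulin dimers, was at 125 ± 14.5 and 183 ± 21.9 CPM, and its relative STMN3 at 43.3 ± 4.07 and 26.6 ± 1.13 CPM (SD, n = 3). The STMN1 call (log2 fold change 0.55) was lost without siControl replicate 1 or siDGUOK replicate 2, where the lowest value was 0.46. Of 17 tested enzymes that modify tubulin tails, 3 were called higher and 2 lower. TTL, the ligase that restores the last tyrosine of alpha-tubulin, was at 60.7, 49.0 and 53.3 CPM in siControl replicates 1, 2 and 3, and at 100.8, 94.2 and 94.5 CPM in siDGUOK replicates 1, 2 and 3. These groups did not overlap, and the log2 fold change was 0.83 (SE 0.12, adjusted p = 3.43e-05 from edgeR's quasi-likelihood test). SVBP, the partner of the vasohibins that remove this tyrosine, had 0.71 (SE 0.18), and SIRT2, a deacetylase of alpha-tubulin, −0.84 (SE 0.19). TTLL3, a glycylase, had 1.33 (SE 0.39), with groups that overlapped and a call lost without siControl replicate 1, siControl replicate 2 or siDGUOK replicate 3, at values from 0.95 to 1.69 with 1 library left out.

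Of 22 tested genes of kinesin-1, dynein and dynactin, 3 were called higher and none lower, where 14.0% of all genes tested were called. DYNLT3, a dynein light chain, went from 16.5 ± 1.30 to 37.4 ± 1.73 CPM, and KLC2, a kinesin light chain, from 39.0 ± 4.35 to 64.6 ± 10.4 CPM (SD, n = 3). DYNC1LI1, a dynein light intermediate chain, had 0.57 (SE 0.16), and its call was lost without siControl replicate 1, siControl replicate 2, siDGUOK replicate 2 or siDGUOK replicate 3, at values from 0.46 to 0.78 with 1 library left out.

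Of 15 genes for actin, actin-binding proteins and intermediate filaments, 7 were called higher and none lower, with a median log2 fold change of 0.63. KRT19, a keratin of bile duct and progenitor cells, was at 736, 976 and 984 CPM in siControl replicates 1, 2 and 3, and at 2317, 2539 and 2751 CPM in siDGUOK replicates 1, 2 and 3. NES, which encodes the intermediate filament nestin, was at 120.5 ± 16.7 and 310.4 ± 31.5 CPM, KRT8 at 2004 ± 151 and 3266 ± 157 CPM, and TPM4, a tropomyosin, at 466 ± 12.3 and 725 ± 14.9 CPM (SD, n = 3). All 3 siDGUOK libraries were above the siControl libraries for each of these 4 genes. Of 16 cell cycle genes none was called higher and 4 were called lower, with a median of −0.28. AURKA, a mitotic kinase, went from 45.0 ± 2.64 to 21.4 ± 1.02 CPM, and TOP2A, the topoisomerase of dividing cells, from 159 ± 20.5 to 88.9 ± 10.51 CPM (SD, n = 3). PLK1 and BUB1 had −0.64 and −0.60. PLK1 lost its call without siControl replicate 3 (−0.53), and BUB1 with any 1 library left out, with library totals alone, without a count filter and in DESeq2 with or without shrunken fold changes. In these fits BUB1 was between −0.67 and −0.51, beyond the fold threshold, so it was the adjusted p that did not pass.

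**Figure D4:**
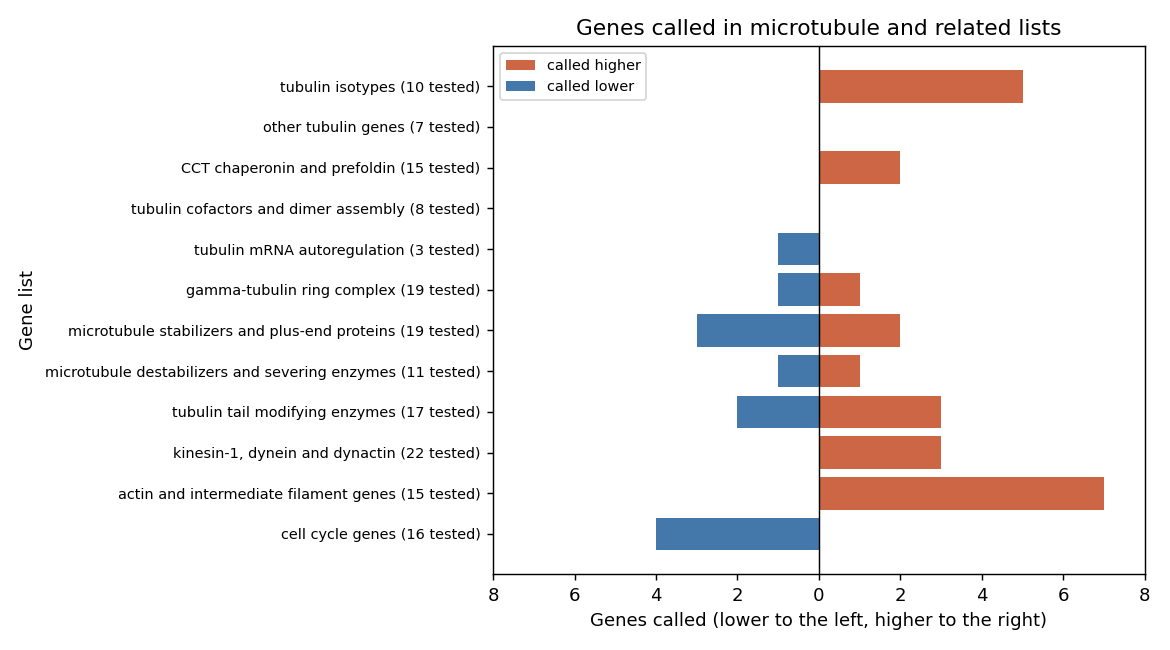
Number of genes called higher (right) and lower (left) in siDGUOK against siControl cells in each list, with the number of genes tested in parentheses. The actin and intermediate filament genes have 7 calls upward and the cell cycle genes 4 downward. Of all genes tested, 7.14% were called higher and 6.90% lower.

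The genes whose pattern over the 6 libraries was nearest to that of TUBA1A, by the root-mean-square difference of centered log2 CPM among 9223 other genes averaging 10 CPM or more, were SHC1 (0.07), PDLIM7 (0.07) and EGFR (0.07). SHC1, an adaptor of receptor tyrosine kinases, had 131, 139 and 129 CPM in siControl replicates 1, 2 and 3, and 276, 304 and 314 CPM in siDGUOK replicates 1, 2 and 3. For TUBB3 the nearest were SH3BGRL3 (0.07), RCL1 (0.09) and IER3 (0.09). All 6 were called higher, which follows from choosing genes near called isotypes, and these likenesses describe 6 libraries.

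Exons of some isotypes overlap those of other genes, and reads that overlap several genes were left out of the counts, without regard to strand. In Gencode 44, 1571 of the 3574 exon bases of TUBA1B overlap an antisense RNA gene, AC011603.2 in the count table, and 21.2% of those of TUBB6 overlap AFG3L2. For TUBB3, 1584 of the 7421 exon bases lie in a read-through gene on the same strand. The canonical TUBB3 transcript has only 1706 bases, and how many of the shared bases lie in it was not analysed. The level, share and fold change of TUBB3 are therefore uncertain, by an amount that was not measured here. TUBA4A shares 628 exon bases with STK16, and TUBA1C shares 666 and TUBB 538 with RNA genes on the opposite strand. TUBB4B shares 124 with FAM166A. TUBA1A and TUBA1C share 345 exon bases on opposite strands. AC011603.2 had 10, 6 and 9 counts in siControl replicates 1, 2 and 3, and 117, 68 and 21 counts in siDGUOK replicates 1, 2 and 3. The last siDGUOK library, at 0.962 CPM, was close to the highest siControl library, at 0.862 CPM. AC011603.2 was called higher at a log2 fold change of 2.75 (SE 0.86, adjusted p = 0.0294 from edgeR's quasi-likelihood test). But of the 6 fits with 1 library left out only 1 kept the call, at values between 2.16 and 3.22, and it was lost with the replicate block. The lowest log2 fold change of AC011603.2 over all alternatives run was 0.80. AC011603.2, AFG3L2, BPHL and PSMG4 are named after their values were seen. AFG3L2 was at 75.4 ± 8.66 and 66.6 ± 2.14 CPM (SD, n = 3), with groups that overlapped. BPHL, which shares 82 exon bases with TUBB2A, was called lower at a log2 fold change of −0.75, and PSMG4, which shares 174 with TUBB2B, was not called at 0.37.

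All 10 hepatocyte markers had a mean of at least 1 CPM, and 9 of them, ALB, AFP, APOA1, APOB, TTR, FGB, FGA, TF and AHSG, were called lower. AHSG lost its call without siControl replicate 2. The summed level of the 10 markers was 62082, 57590.0 and 55509 CPM in siControl replicates 1, 2 and 3, and 33662, 29117 and 27628 CPM in siDGUOK replicates 1, 2 and 3. ALB, with the most CPM, went from a mean of 16206 to 5398 CPM. The 8 neuron markers in the table were all under a mean of 1 CPM, and ELAVL4, STMN2, NEFM and DCX were at 0 in every library. The summed level of the neuron markers was 0 in every siControl library, and 0.38, 1.16 and 0.641 CPM in siDGUOK replicates 1, 2 and 3. The fibroblast or stellate markers summed to 44.4, 41.9 and 36.7 CPM in siControl replicates 1, 2 and 3, and to 70.5, 77.1 and 47.3 CPM in siDGUOK replicates 1, 2 and 3; COL1A1 was called higher, PDGFRB lower, and THY1 was at 0. Of the 6 fits with 1 library left out, 1 kept the PDGFRB call, at log2 fold changes between −1.16 and −0.81 over the 6 fits. The endothelial markers summed to at most 4.51 CPM in 5 libraries and to 59.1 CPM in siDGUOK replicate 2. VWF had the highest mean of that list over all libraries, at group means of 0.609 CPM in siControl and 10.9 CPM in siDGUOK cells. Leukocyte markers summed to 4.56 to 12.4 CPM, with the most CPM in PTPRC, and none was called. The part of these markers in the isotype levels was not tested.

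These results rest on 3 libraries per group of 1 cell line at 1 time point, with 1 siRNA pool. Transcript levels say nothing of tubulin protein, dimers or polymer, which were not analysed here. Counts per gene do not tell transcripts of a gene apart, and the lengths used for shares are those of the annotation, not of the transcripts made in these cells. Near-identical isotypes and genes on opposite strands limit which reads could be counted. The isotypes were selected on earlier results of the same libraries, so their number of calls cannot be set against that of all genes.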

How the data were processed

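The authors removed reads of tRNA, rRNA, adapters and spike-ins, aligned paired reads to GRCh38 with Gencode 27 in STAR 2.6.1, took out low-complexity reads and ran featureCounts 1.6.5 on its defaults, requiring Phred 10. Raw count values, not normalized and not pooled, are what the authors deposited. Members and lists were chosen with earlier results of these data known. In R 4.3.3, edgeR 4.0.16 dropped low genes (filterByExpr, minimum count 10), scaled by TMM and fitted condition alone (quasi-likelihood, robust), with Benjamini-Hochberg adjustment over all 14476 genes tested. The script was tested on simulated data; a first criterion, on all changed genes, was missed for genes of low count, and the criterion was then changed to ask for recovery of well-covered genes only. For the SE, the absolute log2 fold change was divided by the root of F. Replicates of a group varied beyond counting error (chi-square over degrees of freedom 10.8 to 24.8). Lengths and positions came from Gencode 44.

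Named genes were DGUOK, the 10 isotypes, every other tubulin gene with a count, at most 4 called genes per list (or, with none, the most abundant), and for TUBA1A and TUBB3 the 3 nearest genes averaging 10 CPM or more. Outside this rule the text names tubulin genes without a count, the rest of the autoregulation list, marker genes, and genes whose exons overlap an isotype. Alternatives were RLE and upper-quartile scaling, library totals, no count filter, DESeq2 1.42.0 with and without shrinkage, a replicate block, other fold thresholds, other lengths and each library left out. Coding ends of the alpha isotypes are not reported here.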

Additional observations from a re-analysis of the deposited data

How the results depend on the processing

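All isotypes kept the direction of their log2 fold change under all alternatives run. The same 5 isotypes were called higher under each other scaling, without a count filter, in DESeq2 and with the replicate block; with 1 library left out 4 or 5 were called, as TUBB or TUBB6 crossed the fold threshold. With an absolute log2 fold change above 1, 823 genes in place of 2032 and 9 genes of the lists in place of 36 (2 and 5 of these being isotypes) were called; at the adjusted p alone 1 isotype was called lower. These follow from the threshold. The replicate numbers gave no pairing (correlations of deviations 0.02, 0.02 and −0.0023 between equal numbers), and the replicate block called 2078 genes. With 1 library left out, 1704 to 1935 genes were called. Among named genes not called, TUBG2 turned to −0.006 with the replicate block and ranged from −0.317 to 0.316 with 1 library left out, and TUBA4B from −1.68 to 0.524; the cause was not tested. The median log2 fold change of all genes was 0.14 without a count filter, 0.13 in DESeq2 and 0.02 in DESeq2 with shrunken fold changes. The difference in share, in percentage points, moved for TUBB to 5.16 and for TUBB4B to −5.16 without length, for TUBB3 to 0.444 without length and 0.282 with the longest transcript. With canonical transcript lengths, chosen after seeing the data, it was 6.19 for TUBB, −2.82 for TUBB2A and 0.596 for TUBB3; adding TUBB1 to the pool, chosen likewise, moved no share beyond its spread. The log2 ratio of summed beta levels was 0.39, and 0.43 with library totals alone, 0.34 per kb of longest transcript and 0.32 per kb of exon (added after seeing the data). The plain sum uses no length, so the alternative without length gave no separate value.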
